A study of Mus musculus with 6 samples.

Results

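Ccl2, Ccl7, Ccl8, Ccl9, Ccl11, Cx3cl1 and Csf1 encode 6 chemokines that attract monocytes or eosinophils and 1 growth factor of the monocyte and macrophage lineage. They were chosen by name, with earlier results of these data known. Their 7 genes are followed here among the 22483 genes measured in stromal cells of mouse skeletal muscle. All 7 were among the 15532 genes that passed the filter on low values and were tested.

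Chemokines are small secreted proteins that leukocytes follow by receptors on their surface. CCL2 and CCL7 are ligands of CCR2, the receptor by which inflammatory monocytes leave the marrow and enter tissue. CCL11 (eotaxin) acts on CCR3 of eosinophils, mouse CCL8 on CCR8, and CCL9, a chemokine known from rodents, on CCR1. CX3CL1 (fractalkine) is made as a membrane protein and is released by the proteases ADAM10 and ADAM17. CSF1 keeps monocytes and macrophages alive through the receptor CSF1R. In injured muscle, monocytes and eosinophils enter within days, and fibro-adipogenic progenitors, stromal cells marked by CD140a and Sca1, are known as a source of such signals.

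The study compared sorted stromal cells of hind limb muscle on day 3 after cardiotoxin (20 uM), a venom protein that destroys muscle fibers, was injected, with cells of the untreated contralateral muscle. Swiss white mice aged 8 to 12 weeks were used, and the animals also received the proliferation label BrdU. Cells carrying CD45 (leukocytes), CD31 (endothelium) or CD11b (myeloid cells) were gated out, and the rest were sorted as CD140a(-)/Sca1(+), CD140a(+)/Sca1(-) and CD140a(+)/Sca1(+), which is the order of values throughout. Each subpopulation in each state is 1 library of 3' end reads, 6 in all. The number of mice behind a library is not given in the sources used here. The labels name the tibialis anterior, whereas the study's text names the gastrocnemius and soleus for acute injury. Isolated cells of both states were kept warm for hours, for recovery of surface markers, before the sort. The levels are those after this step, and its effect on them was not tested.

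Levels are normalized counts, obtained by inverting the deposited log2 scale, and log2 changes are on the deposited scale, which shrinks changes of low values. Depth was estimated at 14173590, 2094353 and 4076204 reads after injury and at 11984413, 3248537 and 2346692 reads in control. Injured CD140a(+)/Sca1(-) cells gave a library unlike the rest, with 69.1% of genes at 0, whereas the other 5 libraries had 28.2% to 39.0%. It lacked 928 of the 5274 genes that reached 20 normalized counts in every other library, so a 0 there is a weak measurement.

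The markers used for the sort were read first, and libraries of both states went against their CD140a labels. Pdgfra, which encodes CD140a, was at 335, 203 and 1240.0 normalized counts after injury, against 211, 33.6 and 26.3 in control. The library labelled CD140a(-)/Sca1(+) thus held more Pdgfra RNA than both libraries labelled CD140a(+) in control, and more than the one labelled CD140a(+)/Sca1(-) after injury. Ly6a, which encodes Sca1, was at 1177, 2.09 and 4099 after injury, against 5850.0, 70.4 and 253 in control, and was lowest in the CD140a(+)/Sca1(-) sort in both states. RNA and surface protein need not match, and the sort gates themselves were not analysed here. The paper reports its lowest sort enrichment for CD140a(+)/Sca1(+) cells in control. The injury over control folds of that sort divide by this library. Because the control library labelled CD140a(-)/Sca1(+) is the one with the highest levels of several of the 7 genes, the injury changes of these 7 genes are given with and without the CD140a(-)/Sca1(+) pair. Leaving out this pair does not settle which libraries depart from their labels, since Pdgfra was low in both control CD140a(+) libraries. Ranges with each pair left out in turn are given at the end. The other genes and lists and the comparisons between subpopulations are given with all libraries alone.

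**Figure D1:**
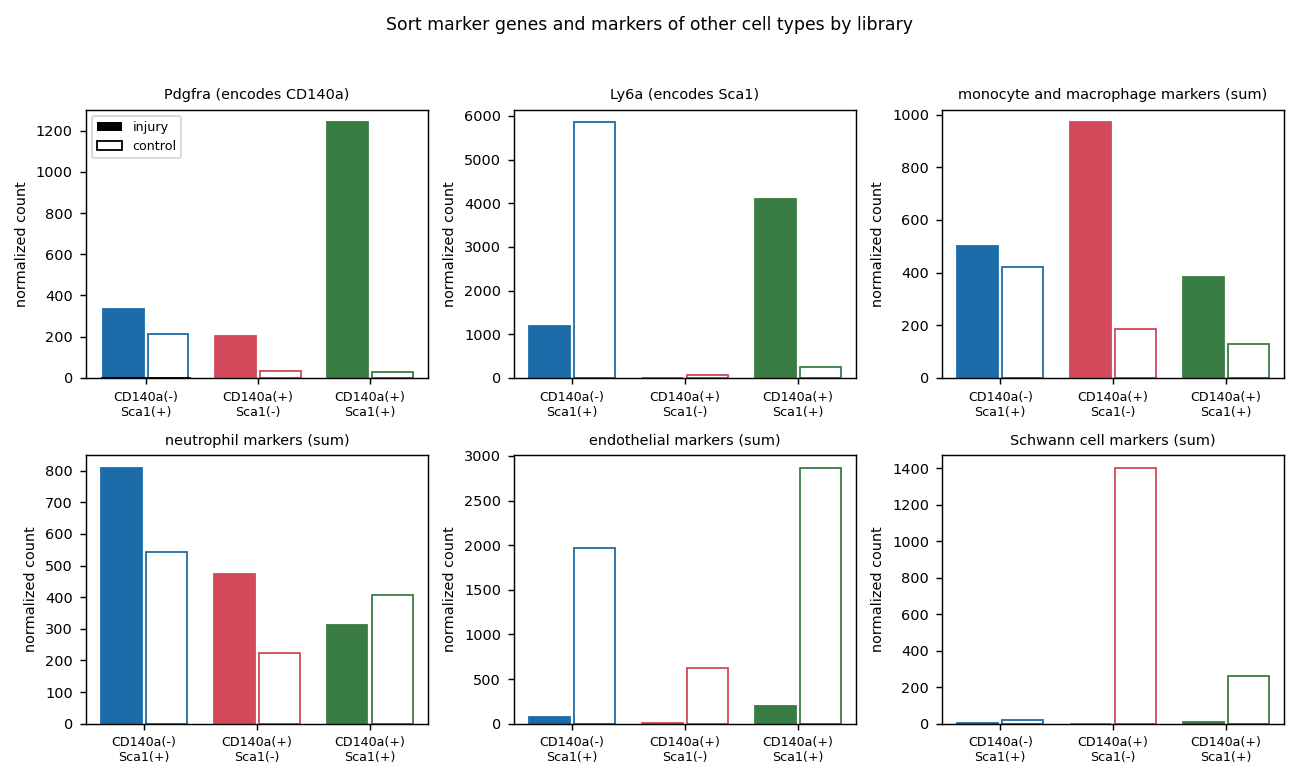
Normalized counts (y axes, from 0) of Pdgfra and Ly6a and summed normalized counts of 4 marker lists in the 6 libraries, injury filled and control open, by sorted subpopulation (x axes). Control Pdgfra was highest in the CD140a(-)/Sca1(+) library at 211, endothelial sums were 77.4, 10.4 and 193 after injury against 1965, 629 and 2863 in control, and the macrophage sum was highest in injured CD140a(+)/Sca1(-) cells at 970.1.

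Of the 7 genes, 3 rose after injury over the 3 subpopulations: Ccl9, Ccl7 and Ccl2. No member fell by the same limits, a p under 0.05 and a change of at least 3-fold in limma with subpopulation as block. Of all tested genes, 2.3% rose and 3.46% fell by these limits. No gene of the 15532 had an adjusted p under 0.05 in limma, while 7.99% had an unadjusted p under 0.05. The median change of the 7 genes was 1.53 on the log2 scale, and that of all tested genes was -0.33. The 3 subpopulations serve as the replicates, so an exact sign-flip permutation test of a single gene cannot give a two-sided p below 0.25. In sorted cells, fewer cells of a type and less RNA per cell cannot be told apart.

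**Figure D2:**
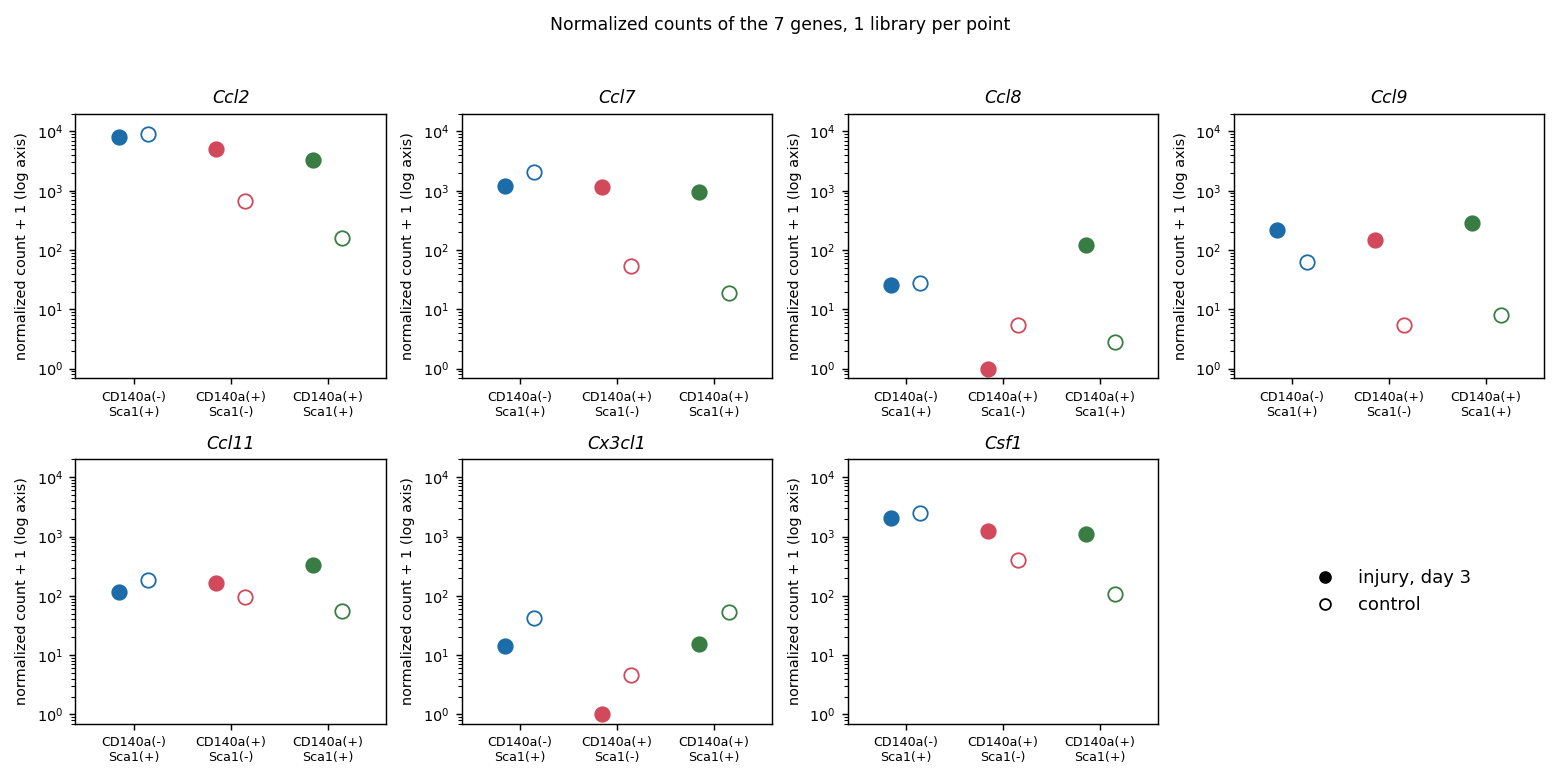
Normalized count plus 1 (y axes, log scale) of the 7 genes in the 6 libraries, 1 point per library, by sorted subpopulation (x axes), with injury as filled points and control as open points. In Ccl2, Ccl7 and Csf1 the filled points lie within a narrow band, while the open points span 9181 to 156 normalized counts for Ccl2, 2085 to 17.7 for Ccl7 and 2528 to 105 for Csf1.

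Ccl2 and Ccl7, the ligands of CCR2, shared 1 pattern: both CD140a(+) sorts were many-fold higher after injury, while CD140a(-)/Sca1(+) cells were high in both states. Ccl2 was at 7963, 5029 and 3275 normalized counts after injury, against 9181, 676 and 156 in control. The injury and control values overlapped because of the single control library labelled CD140a(-)/Sca1(+), which had the highest value of the 6. Within a subpopulation, injury over control was 0.867-fold (95% interval 0.857 to 0.878) in CD140a(-)/Sca1(+) cells, 7.44-fold (6.96 to 7.96) in CD140a(+)/Sca1(-) cells and 21.0-fold (18.1 to 24.5) in CD140a(+)/Sca1(+) cells. These intervals, exact binomial ones on the reads of 1 library against 1, cover counting error only and say nothing of the spread between animals. Over the 3 subpopulations the log2 change of Ccl2 was 2.32 (SE 0.89), with an unadjusted p just under the limit and an adjusted p of 0.605 in limma. It was 3.58 without the CD140a(-)/Sca1(+) pair, and 1.33 and no longer called without the CD140a(+)/Sca1(+) pair.

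Ccl7 was at 1202, 1177 and 961 normalized counts after injury, against 2085, 53.3 and 17.7 in control. After injury the 3 sorts differed by at most 1.25-fold, whereas in control they spanned 118-fold. Injury over control was 0.577-fold (0.560 to 0.593) in CD140a(-)/Sca1(+) cells, 22.1-fold (17.7 to 27.9) in CD140a(+)/Sca1(-) cells and 54.4-fold (35.1 to 89.3) in CD140a(+)/Sca1(+) cells. Its log2 change was 2.84 (SE 1.15, limma adjusted p = 0.623). It was 4.65 without the CD140a(-)/Sca1(+) pair, and the call was lost without the CD140a(+)/Sca1(-) pair, at 2.16, or without the CD140a(+)/Sca1(+) pair, at 1.71. Without the block for subpopulation, neither Ccl2 nor Ccl7 was called (limma adjusted p = 0.652 and adjusted p = 0.631).

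Ccl2 and Ccl7 are neighbors on the plus strand of chromosome 11 (GRCm38, GENCODE M21), Ccl2 at chr11:82035571-82037453 and Ccl7 at chr11:82045712-82047525. Ccl11 (chr11:82057823-82062955), Ccl12 (chr11:82101845-82103400) and Ccl8 (chr11:82115185-82116799) follow in the same direction, with starts 22.3, 66.3 and 79.6 kb from that of Ccl2. These neighbors did not share 1 profile. Ccl12, whose product is another mouse CCR2 ligand, was listed at 0 in 5 libraries and at 0.530 normalized counts, a single read, in injured CD140a(+)/Sca1(+) cells. At the depth of the 6 libraries, 3 reads equal 0.439 to 2.94 normalized counts, the range of what a count of 0 allows.

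**Figure D3:**
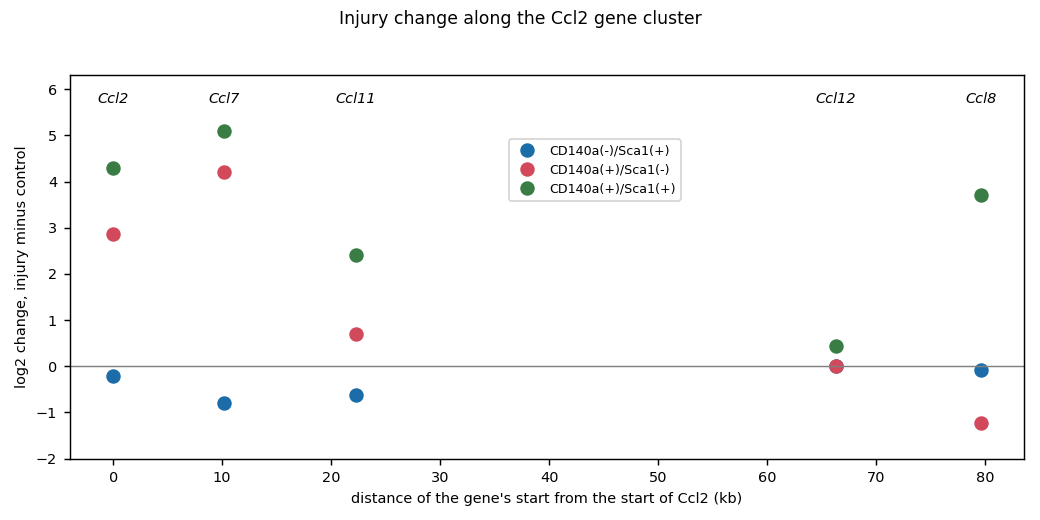
Log2 change, injury minus control on the deposited scale (y axis), of the 5 genes of the cluster against the distance of each gene's start from that of Ccl2 (x axis, kb), 1 point per subpopulation. For Ccl2, Ccl7 and Ccl11 both CD140a(+) points lie above 0 and the CD140a(-)/Sca1(+) point below it, Ccl12 lies near 0, and for Ccl8 the CD140a(+)/Sca1(+) point is far above 0 at 3.71.

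Ccl11, the eosinophil chemokine of the cluster, was detected in all 6 libraries and differed less between the states. It was at 114, 161 and 332 normalized counts after injury, against 184, 95.1 and 53.8 in control, with overlapping states. Injury over control was 0.624-fold (0.567 to 0.686), 1.69-fold (1.35 to 2.13) and 6.17-fold (4.74 to 8.16), so the order of the subpopulations in control was the opposite of that after injury. The log2 change was 0.82 (SE 0.69), with an adjusted p of 0.712 in limma, and Ccl11 was called under none of the 14 alternative settings. Scaling to the 75th percentile turned the CD140a(+)/Sca1(-) change to -0.60 on the log2 scale.

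Ccl8, a ligand of CCR8 in the mouse, was at 25.1, 0 and 121 normalized counts after injury, against 27.0, 4.50 and 1.77 in control. Only the CD140a(+)/Sca1(+) pair showed a higher level after injury, with 229 reads against 2, or 68.7-fold (18.8 to 571). In CD140a(-)/Sca1(+) cells the states did not differ beyond counting error, at 0.931-fold (0.742 to 1.17). In CD140a(+)/Sca1(-) cells 7 control reads stood against 0 after injury, in the library with many genes at 0. With the injury value set at 3 reads this is 1.53-fold lower. That fold leaves out the counting error of the control reads, so a decrease in this pair is not established. The log2 change of Ccl8 was 0.81 (SE 0.97, limma adjusted p = 0.776). It was -0.65 without the CD140a(+)/Sca1(+) pair, and 1.82 and called without the CD140a(+)/Sca1(-) pair.

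Ccl9, the CCR1 ligand, was the member with injury values above control in all 3 pairs, and the member whose states did not overlap. It was at 221, 146 and 289 normalized counts after injury, against 62.6, 4.50 and 7.06 in control. Over the subpopulations this is 219 ± 71.3 after injury and 24.7 ± 32.8 in control (SD, n = 3 libraries each). Injury over control was 3.53-fold (3.13 to 3.98) in CD140a(-)/Sca1(+) cells, 32.5-fold (15.4 to 82.3) in CD140a(+)/Sca1(-) cells and 40.9-fold (20.6 to 95.2) in CD140a(+)/Sca1(+) cells. Of all tested genes, 7.92% were above control in all 3 pairs, and 4.18% had all injury values above all control values. The log2 change was 3.11 (SE 0.64), with an adjusted p of 0.383 in limma. It ranged from 2.58 to 3.84 when each pair was left out, with the call kept each time, and the call was lost in the test without moderation.

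Ccl9 lies on the minus strand of chromosome 11 at chr11:83572919-83578636, and Ccl6 (chr11:83587882-83593087) lies beside it on the same strand. CCL6 is a related chemokine that also acts on CCR1. Ccl6 was at 139, 10.8 and 365 normalized counts after injury, against 45.2, 0 and 1.77 in control. It rose by 2.82 on the log2 scale (SE 0.84, limma adjusted p = 0.508) and was the single called gene among the 11 tested of 16 other CC chemokine genes. None of these 11 fell, and their median change was -0.41, while 2.3% of all tested genes rose and 3.46% fell.

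The bases before the start of transcription are shown for 3 of the genes, which differ in how many subpopulations were higher after injury: Ccl9 in all 3, Csf1 in both CD140a(+) sorts and Ccl8 in 1. Each is 250 bases of the gene's own strand, 5′ to 3′, ending just before the start, from RefSeq on GRCm38.p6, which gave a window for 4 of the 7 genes. Capitals mark matches to the NF-kB consensus, to the AP-1 site TGANTCA and to the TATA box TATAAA, searched on both strands.
Ccl9: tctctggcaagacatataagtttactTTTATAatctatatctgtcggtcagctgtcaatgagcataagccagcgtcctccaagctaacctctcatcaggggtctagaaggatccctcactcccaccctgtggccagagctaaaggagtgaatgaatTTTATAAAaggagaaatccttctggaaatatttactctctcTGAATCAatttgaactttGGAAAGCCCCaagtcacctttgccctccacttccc
Csf1: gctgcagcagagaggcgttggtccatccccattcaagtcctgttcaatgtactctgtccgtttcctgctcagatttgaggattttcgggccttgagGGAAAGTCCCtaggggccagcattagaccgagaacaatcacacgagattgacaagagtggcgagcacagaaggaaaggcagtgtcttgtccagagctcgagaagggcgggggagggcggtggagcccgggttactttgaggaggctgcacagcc
Ccl8: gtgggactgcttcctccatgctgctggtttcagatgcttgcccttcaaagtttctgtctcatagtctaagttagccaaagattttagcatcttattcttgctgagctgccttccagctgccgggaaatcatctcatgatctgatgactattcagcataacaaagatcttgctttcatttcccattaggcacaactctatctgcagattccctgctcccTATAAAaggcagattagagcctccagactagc
The Ccl9 window is at chr11:83578637-83578886 (minus strand), the Csf1 window at chr3:107760470-107760719 (minus strand) and the Ccl8 window at chr11:82114935-82115184 (plus strand). In Ccl9 the NF-kB match lay 35 to 26 bases and the AP-1 match 53 to 47 bases upstream, and TATA matches lay at 94 to 87 (overlapping matches on both strands) and 224 to 219. In Csf1 the NF-kB match lay 154 to 145 bases upstream, and Ccl8 held a TATA match 32 to 27 bases upstream. Among 32851 windows of the same length, 7.25% held an NF-kB match, 6.75% an AP-1 match and 12.4% a TATA match. The STAT site TTCNNNGAA, in 7.02% of all windows, was in none of the 4 windows of these genes. A match of letters is a description and shows no binding.

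Csf1, at chr3:107741048-107760469 on the minus strand, had the same directions as Ccl2 in all 3 pairs, with smaller fold changes in both CD140a(+) sorts. It was at 2045, 1257 and 1120.3 normalized counts after injury, against 2528, 406 and 105 in control. Injury over control was 0.809-fold (0.790 to 0.828) in CD140a(-)/Sca1(+) cells, 3.09-fold (2.81 to 3.41) in CD140a(+)/Sca1(-) cells and 10.7-fold (8.86 to 12.9) in CD140a(+)/Sca1(+) cells. Reads of Csf1 and Cx3cl1, unlike those of the other 5, did not come out as whole numbers and were rounded for these intervals. The log2 change of Csf1 was 1.53 (SE 0.76, limma adjusted p = 0.652), or 2.88-fold, and passed neither limit. It was 2.44 and called without the CD140a(-)/Sca1(+) pair, and 2.25 and called with median centring.

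Cx3cl1, at chr8:94772009-94782427 on the plus strand, was the member with lower values after injury in all 3 pairs, as were 20.2% of all tested genes. It was at 13.1, 0 and 14.4 normalized counts after injury, against 41.6, 3.61 and 53.3 in control. Injury over control was 0.316-fold (0.245 to 0.406) in CD140a(-)/Sca1(+) cells and 0.270-fold (0.165 to 0.432) in CD140a(+)/Sca1(+) cells. In CD140a(+)/Sca1(-) cells 6 control reads stood against 0. With the injury value set at 3 reads this is 1.23-fold lower. That fold leaves out the counting error of the control reads, so a decrease in this pair is not established. The log2 change was -1.22 (SE 0.48) with an adjusted p of 0.609 in limma; its unadjusted p was under 0.05, but its size stayed under 3-fold. With a pseudocount of 1 or 0.5 on the normalized counts it was -1.87 or -2.17 and was called. Fractalkine is a product of endothelium among other cells. Of 12 endothelial marker genes, 8 fell, while 3.46% of all tested genes did, and none rose, with a median change of -2.85. Control Cx3cl1 and the control endothelial sums had the same order of the 3 sorts, and the part of endothelial RNA in the change of Cx3cl1 was not tested.

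**Figure D4:**
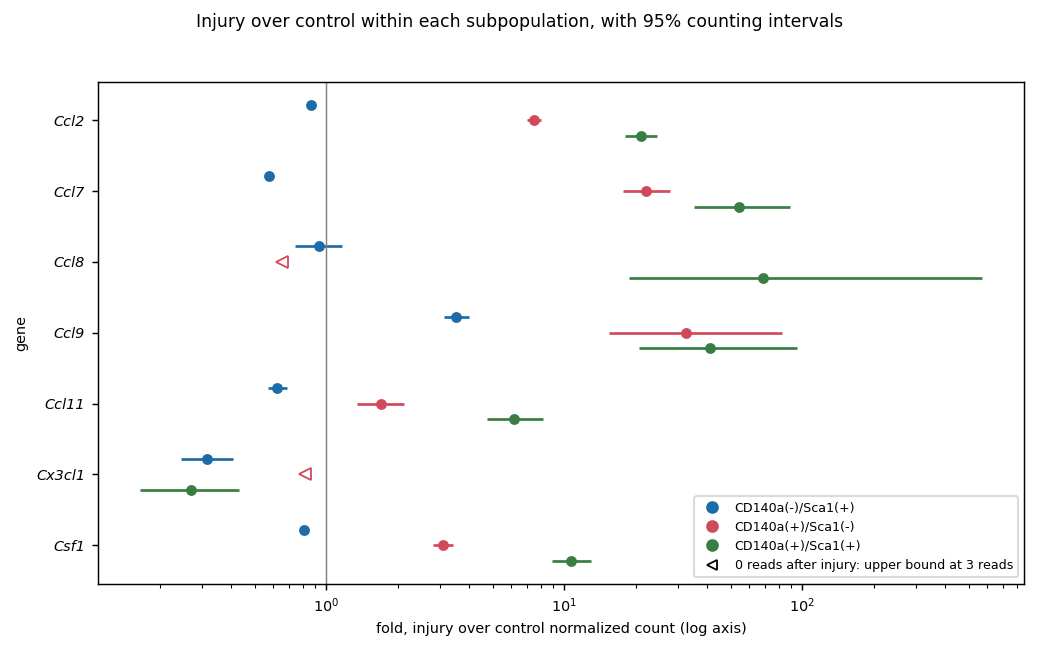
Fold of the normalized count, injury over control (x axis, log scale), for the 7 genes (y axis) in each of the 3 subpopulations, with 95% counting intervals as bars and open triangles where the injury library had 0 reads. The triangles set the injury value at 3 reads and leave out the counting error of the control reads. CD140a(+)/Sca1(+) points lie farthest right for 6 genes, up to 68.7-fold for Ccl8, and Cx3cl1 lies left of 1 in all 3.

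Counted within subpopulations on the deposited scale, 1 of the 7 genes was at least 3-fold higher after injury in CD140a(-)/Sca1(+) cells (Ccl9), where 1.97% of tested genes were. In CD140a(+)/Sca1(-) cells 4 were (Ccl2, Ccl7, Ccl9 and Csf1), where 8.31% of tested genes were. In CD140a(+)/Sca1(+) cells 6 were, all but Cx3cl1, where 10.4% of tested genes were. None was at least 3-fold lower on this scale in a subpopulation, a limit passed by 4.35%, 29.4% and 6.07% of tested genes, although Cx3cl1 was 3.17-fold and 3.70-fold lower in normalized counts in the Sca1(+) sorts. Ccl2, Ccl7, Ccl9 and Csf1 were at least 3-fold higher in both CD140a(+) sorts, where 2.52% of tested genes were. Of these, Ccl2, Ccl7 and Csf1 were not higher in CD140a(-)/Sca1(+) cells, a combination of both features found in 119 tested genes (0.766%). Without the CD140a(-)/Sca1(+) pair, the limma log2 change was 3.84 for Ccl9, 1.24 for Ccl8, 1.55 for Ccl11 and -1.24 for Cx3cl1, beside the values given for Ccl2, Ccl7 and Csf1, and 4 of the 7 genes were called higher, as were 401 of all genes tested. With 1 library for each sort and state, the difference between subpopulations in their response to injury could not be tested.

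The levels lay closer together after injury than in control. The log2 range over the 3 subpopulations was smaller after injury in 6 of the 7 genes (85.7%), Ccl8 being the exception, and in 33.3% of all tested genes. Its median over the 7 genes was 1.28 after injury and 2.42 in control, and over all tested genes 1.46 after injury and 0.92 in control. For Ccl2 the highest subpopulation was 2.43-fold above the lowest after injury and 58.8-fold in control. For Csf1 these ratios were 1.83 after injury and 24.1 in control, and for Ccl9 1.97 after injury and 13.9 in control. All 3 ratios in control start from the library labelled CD140a(-)/Sca1(+), the highest of the controls for each. Without that sort, a comparison added after the values were seen, the range between the CD140a(+) sorts was smaller after injury in 4 of the 7 genes (57.1%), and in 31.0% of all tested genes. The CD140a(+) sorts then differed 1.54-fold after injury and 4.33-fold in control for Ccl2, 1.22-fold after injury and 3.02-fold in control for Ccl7, and 1.12-fold after injury and 3.87-fold in control for Csf1. The order was the reverse for Ccl9, at 1.97-fold after injury and 1.57-fold in control, and for Ccl11, at 2.06-fold after injury and 1.77-fold in control. It was also the reverse for Ccl8, with a log2 range of 4.49 after injury and 0.44 in control. For Cx3cl1 the log2 range was 2.07 after injury and 2.35 in control. The injury ranges of Ccl8 and Cx3cl1 rest on a 0 in CD140a(+)/Sca1(-) cells.

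On the deposited scale the control library labelled CD140a(-)/Sca1(+) was at least 3-fold above both other control libraries for 4 of the 7 genes (Ccl2, Ccl7, Ccl9 and Csf1), against 3.01% of all tested genes. Its Ccl2 level was 13.6-fold (12.8 to 14.5) that of control CD140a(+)/Sca1(-) cells and 58.8-fold (50.7 to 68.5) that of control CD140a(+)/Sca1(+) cells. After injury the same ratios of Ccl2 were 1.58 (1.54 to 1.63) and 2.43 (2.37 to 2.50). It also held the most Ly6a, the most summed fibroblast markers among the controls, and more S100a9 and Cd79a than the other 5 libraries. The 12 fibroblast markers, Ly6a among them, summed to 47996, 28726 and 33633 normalized counts after injury, against 14914, 7002 and 2926 in control. In the control library labelled CD140a(-)/Sca1(+), Ly6a made up 5850.0 of this sum. Not each marker was highest in that library, where Col1a1 was lower than in the other controls. Of the 12, 4 rose, while 2.3% of all tested genes did, and none fell, with a median change of 1.01. S100a9 was listed at 0 in all injury libraries, against 185, 13.5 and 0 in control, and Cd79a was at 1.61, 0 and 3.18 after injury, against 90.7, 2.57 and 6.18 in control. Cd3d, a T cell gene, was at 19.6, 31.4 and 4.77 after injury, against 34.1, 3.85 and 23.8 in control. The part of these cells in the levels of the 7 genes was not tested.

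Over both states, with injury as a covariate, each subpopulation was set against the mean of the other 2 in the same limma fit. CD140a(-)/Sca1(+) cells had more Ccl2, by 2.86 on the log2 scale (SE 0.95, limma adjusted p = 0.998), and more Csf1, by 2.15 (SE 0.80, adjusted p = 0.998), where 1.33% of tested genes were called higher. Ccl7 differed by 2.90 (SE 1.22, limma adjusted p = 0.998) and was not called. None of the 7 was called lower there (0.283% of tested genes). CD140a(+)/Sca1(-) cells had less Cx3cl1, by -2.11 (SE 0.50, limma adjusted p = 0.615), where 3.73% were called lower and, with no member, 0.657% higher. CD140a(+)/Sca1(+) cells had less Ccl2, by -2.43 (SE 0.95, limma adjusted p = 0.986), where 0.47% were called lower and, with no member, 1.32% higher. Without moderation of the variances, the Cx3cl1 call was kept and the Ccl2 and Csf1 calls were lost. The Cx3cl1 call rests on values near the floor in CD140a(+)/Sca1(-) cells, with 6 reads in control. After injury it had 0 reads, in the library with many genes at 0.

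**Figure D5:**
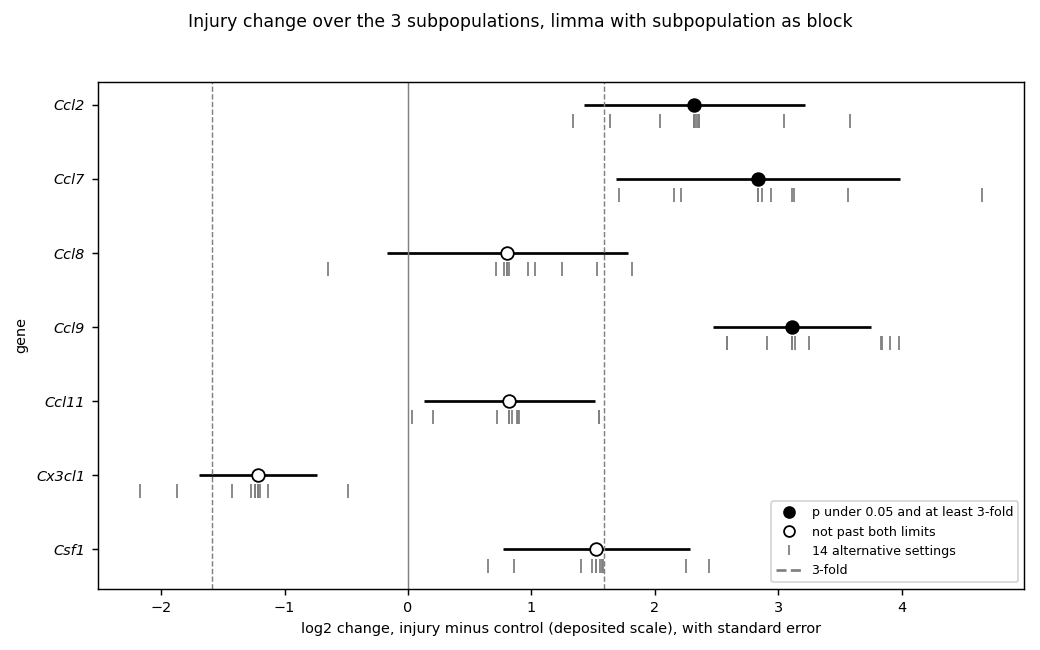
Log2 change over the 3 subpopulations, injury minus control on the deposited scale (x axis), for the 7 genes (y axis), with standard errors as bars, filled points for genes past both limits, grey ticks for the alternative settings and dashed lines at 3-fold. Ccl9 at 3.11, Ccl7 at 2.84 and Ccl2 at 2.32 are filled, and the ticks of Ccl8 reach from -0.65 to 1.82.

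Genes whose levels followed those of the members most closely over the 6 libraries are given as a description, since each correlation rests on 6 points that share depth and sort. For Ccl2, among 5525 genes, these were Cxcl5 (Pearson r = 0.997), Csf1 (0.995) and Laptm4a (0.994). Cxcl5, a chemokine of neutrophils, was at 1308, 865 and 578 normalized counts after injury, against 1973, 127 and 33.5 in control. Limd2, Hilpda and Chrnb2 came closest to Ccl7, and Vegfc, Hmga2 and Pcolce2 to Ccl9. Vegfc, the growth factor of lymphatic vessels, was at 182, 183 and 221 normalized counts after injury, against 124, 64.2 and 65.3 in control. Closest to Csf1 were Ccl2, Cxcl5 and Map2k1. Rpl38, Ddx17 and Cse1l were closest to Ccl11, Atxn7l3b, Rabepk and Gga2 to Ccl8, and Nsd1, Rad54l2 and H2-Q6 to Cx3cl1.

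Among receptors by which stromal cells can be driven to make these chemokines, 1 chain each of those for interleukin 1, interleukin 13 and interferon gamma rose. Of 20 such receptor and transcription factor genes, 3 rose, while 2.3% of all tested genes did, and none fell, with a median change of -0.17. Il1r1, the signalling receptor of interleukin 1, was at 306, 613 and 277 normalized counts after injury, against 91.5, 15.9 and 26.3 in control, without overlap. It rose by 3.05 on the log2 scale (SE 0.68, limma adjusted p = 0.406). Il13ra1 rose by 2.43 (limma adjusted p = 0.449), with 196, 200.2 and 187 normalized counts after injury, against 86.8, 16.7 and 10.6 in control. Ifngr2 rose by 1.95 (limma adjusted p = 0.579). The partner chains did not pass the limits, with log2 changes of -0.62 for Il1rap, -0.57 for Ifngr1 and 1.08 for Il4ra, the partner of Il13ra1. Il1rap and Ifngr1 were at 0 in injured CD140a(+)/Sca1(-) cells, the library with many genes at 0. Il1rap was at 16.1, 0 and 34.4 normalized counts after injury, against 15.6, 20.1 and 21.9 in control. Genes of the factors themselves were not called, Rela being at 85.8, 125 and 57.8 after injury, against 148, 108 and 52.1 in control.

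Of 7 genes for receptors of the 7 proteins, 5 were tested, 1 rose and none fell, with a median change of 0.36. Of all tested genes, 2.3% rose. Ccr1 was at 14.8, 197 and 12.2 normalized counts after injury, against 4.31, 3.85 and 0 in control, a log2 change of 2.27 (SE 0.71, limma adjusted p = 0.528). Csf1r was at 118, 175 and 110 after injury, against 168, 117 and 49.2 in control, and was not called. Ccr2 was at most at 5.80 in any library and Ccr3 at most at 1.31. Of 5 atypical receptors, which bind chemokines without the usual signal, Ackr1, a gene of venular endothelium, fell by 2.40 (limma adjusted p = 0.383), being at 5.45, 0 and 0.537 after injury, against 93.8, 13.7 and 30.4 in control. The median of these 5 was -0.64, and none rose, while 3.46% of all tested genes fell.

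None of the 4 genes for the sheddases of CX3CL1 and CSF1 and their cofactors was called, with a median of -0.54. Adam17 was at 766, 212 and 653 normalized counts after injury, against 816, 908 and 406 in control. Adam10 was at most at 118, Rhbdf1 at most at 29.6 and Rhbdf2 at most at 30.0 in any library. Of 6 other growth factor genes for monocytes and eosinophils, 4 were tested and none was called, with a median of 0.36. Il33, which encodes an alarmin that drives eosinophil responses, was at 915, 665 and 1605 after injury, against 533, 994 and 46.5 in control. Tslp was at 132, 0 and 53.5 after injury, against 104, 2.57 and 3.53 in control. Csf2 was at most at 23.1 and Il34 at most at 15.0 in any library.

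Leukocytes make several of these chemokines, and their markers were read beside the members. The 20 macrophage markers summed to 502, 970.1 and 382 normalized counts after injury, against 423, 186 and 130.3 in control. Of the 17 tested, 1 rose (Lyz2, by 2.20, limma adjusted p = 0.449), while 2.3% of all tested genes did, and none fell, with a median change of 0.63. Lyz2, a lysozyme of myeloid cells, was at 176, 249 and 74.2 after injury, against 68.0, 21.8 and 7.06 in control. Members of this list differed in level. Ptprc, which encodes CD45, was at 2.50, 0 and 0.533 after injury, against 20.5, 0 and 0.887 in control, and Spi1 and Aif1 were at most at 2.12. Itgam, which encodes the gated CD11b, was at 22.5, 27.5 and 8.48 after injury, against 24.0, 13.5 and 18.5 in control. Fcer1g, a signalling chain of Fc receptors, was at 23.8, 87.3 and 13.2 after injury, against 43.9, 0 and 1.77 in control. The summed level was highest in injured CD140a(+)/Sca1(-) cells, where Tyrobp was at 222 and Cd68 at 114 but 11 of the 20 markers were at 0. In all, 3, 11 and 1 of the 20 were at 0 after injury, against 2, 10 and 7 in control. Compared with these cells, injured CD140a(-)/Sca1(+) cells had 1.58-fold the Ccl2, and Ccl7 was within counting error, at 1.02-fold (0.961 to 1.09). Injured CD140a(+)/Sca1(+) cells had the lowest sum after injury, and also the lowest Ccl2, Ccl7 and Csf1 after injury, at 3275, 961 and 1120.3. The other members, Ccl8, Ccl9, Ccl11 and Cx3cl1, were highest there among the injured sorts, at 121, 289, 332 and 14.4. Of 8 neutrophil markers, 4 were tested, with a median change of -0.84. S100a9 fell (by 2.35, limma adjusted p = 0.623) and none rose, while 3.46% of all tested genes fell. Neutrophil markers summed to 808, 472 and 311 after injury, nearly all of it Cxcr2, against 544, 224 and 407 in control. Among them Cxcr2 was at 801, 472 and 303 after injury, against 243, 198 and 399 in control, and S100a8 was at 111 in control CD140a(-)/Sca1(+) cells, beside 185 for S100a9. Schwann cell markers summed to 4.36, 0.906 and 11.0 after injury, against 22.2, 1401 and 259 in control. Eosinophil markers summed to at most 10.5 in any library. The part of these other cells in the levels of the 7 genes was not tested.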

How the data were processed

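The authors trimmed the 3' end reads, aligned them to GRCm38 (mm10) with STAR, counted them per gene and used DESeq2 for normalization. The deposited values are log2 values, whose shape is that of DESeq2's variance stabilizing transformation of size-factor scaled counts (read from the values, not stated). Their floor, 2.57 on the log2 scale, is a gene with no read. Inverting this transformation gave normalized counts, and the step between low values gave the size of 1 read in each library. Between 55.9% and 63.8% of low values per library were whole within 0.02 reads, so no count model was run. Symbols of 22453 of 22483 identifiers came from GENCODE M21 and a table of gene names.

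The deposited values were tested with limma 3.58.1 in R 4.3.3 (moderated variances, no trend, 4.11 prior and 2 residual degrees of freedom) on the 15532 genes whose 80th percentile, on the linear form of the scale, was at least 8. Adjusted p values are Benjamini-Hochberg values over all of these. Subpopulation was the block because injury and control libraries of 1 sort belong together in the labels and the study used a paired comparison. The 3 subpopulations stand for replicates, so p values measure the spread between them and not between animals. Intervals are exact, at 95%. The test was checked on simulated data. Python 3.11.15 with numpy 2.4.6, pandas 2.3.3, scipy 1.17.1 and matplotlib 3.10.9 did the rest.

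The 7 genes and the gene lists were chosen with earlier results of these data known. Beside the 7 genes, named genes are up to 4 of each list with the largest called change, or with the highest mean where none was called, and the 3 genes most correlated with each member among those reaching 100 normalized counts in a library. Ccl12, Ccr2, Ccr3, Cd68, Csf1r, Cxcr2, Fcer1g, Ifngr1, Il1rap, Il4ra, Itgam, Ly6a, Ptprc, Rela, S100a8, Spi1, Aif1 and Tyrobp were added with their values known. The alternatives changed the scale, filter, scaling, variance and block, and left out each pair in turn.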

Additional observations from a re-analysis of the deposited data

Results flagged for a closer look

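For 4 of the genes the libraries moved in opposite directions between subpopulations, lower after injury in the CD140a(-)/Sca1(+) pair and higher in both CD140a(+) pairs, each beyond counting error. In the CD140a(-)/Sca1(+) pair the log2 change was -0.79 for Ccl7, -0.63 for Ccl11, -0.30 for Csf1 and -0.21 for Ccl2. The median of all tested genes in this pair was -0.23. Among the 2746 genes with at least 100 normalized counts in both libraries it was -0.074. The decreases of Ccl2 and Csf1 were thus near the first median and larger than the second. With scaling to the total they were -0.088 for Ccl2 and -0.19 for Csf1. The mean change of the CD140a(+) pairs minus that of the CD140a(-)/Sca1(+) pair, on the log2 scale, was 5.44 for Ccl7, 3.79 for Ccl2, 2.75 for Csf1 and 2.18 for Ccl11. For Ccl11 the opposite directions depended on the scaling, and for Csf1 the contrast was smaller: with scaling to the 75th percentile the CD140a(+)/Sca1(-) change was -0.60 for Ccl11 and 0.19 for Csf1, against 0.70 and 1.60 as deposited. With 1 library per subpopulation and state, the difference was not tested. All 4 values share the control library labelled CD140a(-)/Sca1(+), in which Pdgfra was higher than in the other controls.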

How the results depend on the processing

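The injury change of Ccl2, Ccl7, Ccl9, Ccl11 and Csf1 kept its positive sign and that of Cx3cl1 its negative sign under all 14 alternatives. Ccl2 was no longer called with a pseudocount of 1 (2.36) or 0.5 (2.36) on the normalized counts, with no filter or no moderation (2.32 each), with scaling to the 75th percentile (1.64) or without the replicate block (2.32). Ccl7 was lost under the same settings (3.11, 3.13, 2.84, 2.84, 2.21 and, without the block, 2.84), and Ccl9 without moderation (3.11). Cx3cl1 was called lower with a pseudocount of 1 (-1.87) or 0.5 (-2.17), and Csf1 higher with median centring (2.25). The number of the 7 genes called higher was then 1 under both pseudocounts, no filter, scaling to the 75th percentile and no replicate block, and 0 without moderation, and 1 was called lower under both pseudocounts. With 1 pair left out (2 pairs remaining), the change ranged from 1.33 to 3.58 for Ccl2, 1.71 to 4.65 for Ccl7, -0.65 to 1.82 for Ccl8, 2.58 to 3.84 for Ccl9, 0.03 to 1.55 for Ccl11, -1.27 to -1.13 for Cx3cl1 and 0.65 to 2.44 for Csf1, and 1 to 4 of the 7 were called higher. Adjusted p over the alternatives ranged from 0.0195 to 0.836 for Ccl2, 0.0128 to 0.836 for Ccl7 and 0.00348 to 0.836 for Ccl9.

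With 1 pair left out, 183 (without the CD140a(+)/Sca1(+) pair) to 456 of all tested genes were called higher and 412 to 563 lower, against 357 and 537 with all pairs. Among all genes, 181 were called higher with no filter, 164 with scaling to the 75th percentile, 1218 with median centring and 114 without moderation. Called lower were 866 and 907 with pseudocounts of 1 and 0.5, 245 with no filter, 1088 with scaling to the 75th percentile, 178 with median centring and 180 without moderation. The split between higher and lower thus depends on the scaling.

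For CD140a(-)/Sca1(+) against the mean of the other 2, 1 member was called higher with a pseudocount of 1, and 0 with 0.5, no filter or no moderation. For CD140a(+)/Sca1(-), 2 were called lower with scaling to the 75th percentile and 0 with median centring. For CD140a(+)/Sca1(+), 1 was called higher under both pseudocounts, and the number called lower was 0 under both pseudocounts, no filter, scaling to the 75th percentile and no moderation, 2 with quantile normalization, and 3 with median centring or a mean-variance trend. Signs turned for Ccl11 in CD140a(-)/Sca1(+) (-0.42 with median centring), for Ccl2 (0.69), Ccl7 (0.23), Ccl9 (0.077), Ccl11 (0.95) and Csf1 (0.80) in CD140a(+)/Sca1(-) with median centring, and for Ccl9 (0.21 with scaling to the 75th percentile) and Ccl11 (-0.53 with median centring) in CD140a(+)/Sca1(+), and none of these was called. Within subpopulations, scaling to the 75th percentile left 0 members at least 3-fold higher in CD140a(-)/Sca1(+) and 2 in CD140a(+)/Sca1(-), put 1 at least 3-fold lower in CD140a(+)/Sca1(+), and turned Ccl11 in CD140a(+)/Sca1(-) to -0.60, while scaling to the total gave 0.010 for Ccl8 in CD140a(-)/Sca1(+). The cause of these shifts was not tested. Ccl8 and Cx3cl1 had 0 reads in injured CD140a(+)/Sca1(-) cells, the shallowest library. Their folds there set the injury value at 3 reads and leave out the counting error of the few control reads.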
